A study of Mus musculus with 8 samples.

Results

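The genes described here are 10 transcription factor genes of mouse muscle: the nuclear factor I genes Nfia, Nfib, Nfic and Nfix, the Max network genes Max, Myc, Mxi1, Mxd4 and Mnt, and the homeobox gene Cux1. They were chosen by name, because the study placed Max, Nfic and Cux1 among transcription factor genes that Bcl-3, an NF-kB activator, binds in unloaded muscle, and the others belong to the same families or network. They are 10 of 18784 genes named on the arrays, and each had 1 of the 21212 probe sets. RNA came from the gastrocnemius and plantaris of 7-week-old female C57BL/6J mice, wild type in both groups, housed individually. The 4 mice of the unloaded group (HU) had their hind limbs lifted clear of the cage floor for 5 days, and the 4 weight bearing mice (WB) did not. Each RNA sample was hybridised to its own Affymetrix Mouse Gene 1.0 ST array, and all values are log2 expression as deposited, so a difference of 1 is a doubling. Max, Nfic and Cux1 were named by the study partly because they were raised on these same arrays, so their own changes are not independent of that choice. Of these, Max and Cux1 did not pass the main test used here. The set of 10 was also chosen with earlier results of these data known, so the other changes are not fully independent either.

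Nuclear factor I (NFI) proteins bind DNA as dimers of any of the family's members and can activate or repress transcription. Nfix is known in mouse muscle for moving developing fibres from the embryonic to the fetal gene programme. Max is the shared partner of its network: Myc binds DNA as a dimer with Max and activates growth genes, while Mxi1, Mxd4 and Mnt pair with Max on the same E-box sites and recruit the Sin3 and histone deacetylase corepressor. Cux1 is a homeodomain protein with CUT repeats that mostly represses transcription.

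The sequence that Max dimers recognise best is the E-box CACGTG, which reads the same on both strands. It was searched for in RefSeq promoter windows (build GRCm38.p6), each running from 250 bases before a transcription start to 50 bases after it. Windows were held for 8 of the 10 genes, all but Nfib and Myc, and numbered 13 because some genes have several starts. The E-box stood in windows of 3 of these 8 genes, Mxd4, Mnt and Max. Of all 32851 windows 7.15% held it. That share counts windows and not genes, so it is not directly comparable with a count of genes, here or for the motifs below. The stretches around these E-boxes are shown 5′ to 3′ on the gene's own strand, with the E-box in capitals.
Mxd4: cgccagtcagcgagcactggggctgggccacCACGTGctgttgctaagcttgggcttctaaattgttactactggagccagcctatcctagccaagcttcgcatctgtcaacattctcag
Mnt: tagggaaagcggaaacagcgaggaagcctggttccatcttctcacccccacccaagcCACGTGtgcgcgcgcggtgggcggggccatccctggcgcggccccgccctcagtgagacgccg
Max: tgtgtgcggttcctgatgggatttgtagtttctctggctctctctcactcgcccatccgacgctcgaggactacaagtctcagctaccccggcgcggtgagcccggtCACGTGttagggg
The Mxd4 stretch lies at chr5:34187841-34187960 on the minus strand, the Mnt stretch at chr11:74830744-74830863 on the plus strand and the Max stretch at chr12:76962239-76962358 on the minus strand. Counted from the start, the first base of the E-box is -219 in Mxd4, -123 in Mnt and -3 in Max, so that in Max the E-box spans the annotated start itself. Among the remaining genes of the network, Mlx (first base -40) and Mlxipl (first base -98) also held an E-box.

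Because Bcl-3 acts through NF-kB sites, the windows were also searched on both strands for the NF-kB consensus, which 4.51% of all windows hold. Of the 8 genes only Cux1 had a match, shown in capitals, with its first base at -57. The Nfic window held no match to any of the 3 motifs searched and is shown beside it for comparison.
Cux1: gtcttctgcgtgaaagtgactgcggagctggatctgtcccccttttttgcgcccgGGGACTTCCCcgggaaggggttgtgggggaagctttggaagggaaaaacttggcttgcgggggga
Nfic: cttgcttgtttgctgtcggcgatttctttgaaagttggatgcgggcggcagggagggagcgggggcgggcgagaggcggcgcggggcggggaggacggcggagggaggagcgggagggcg
The Cux1 stretch lies at chr5:136565974-136566093 and the Nfic stretch at chr10:81427174-81427293, both on the minus strand. The third motif was TTGGCA, an arm of the palindromic NFI site, searched on both strands and present in 14.1% of all windows. Max was the only one of the 8 genes to hold it, with its first base at -169 on the opposite strand. These matches describe letters in short windows and say nothing of binding. The study counted promoter peaks over a much wider region around the start. A gene without a match here may hold one outside its window.

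In unloaded muscle 4 of the 10 genes were higher (Nfic, Myc, Mxi1 and Mxd4) and 1 was lower (Nfib) at an adjusted p under 0.05 (limma, Benjamini-Hochberg over all 21212 probe sets, 4 arrays in each group). Across the arrays 12.8% of probe sets were called higher and 11% lower. The changes of the 10 genes lay between -0.21 and 0.34 on the log2 scale, with a median of 0.13, against a median of 0.045 over all probe sets. In 6 of the 10 genes the unloaded and weight bearing arrays did not overlap, against 27.5% of all probe sets. Nfic, Max and Cux1 are among these 6 and were named by the study partly for being raised on these arrays. The counts and the median of the 10 genes are therefore not independent of the values, and no enrichment was tested. The plot of array values shows both the small size of the shifts and how tightly most groups sat.

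**Figure D1:**
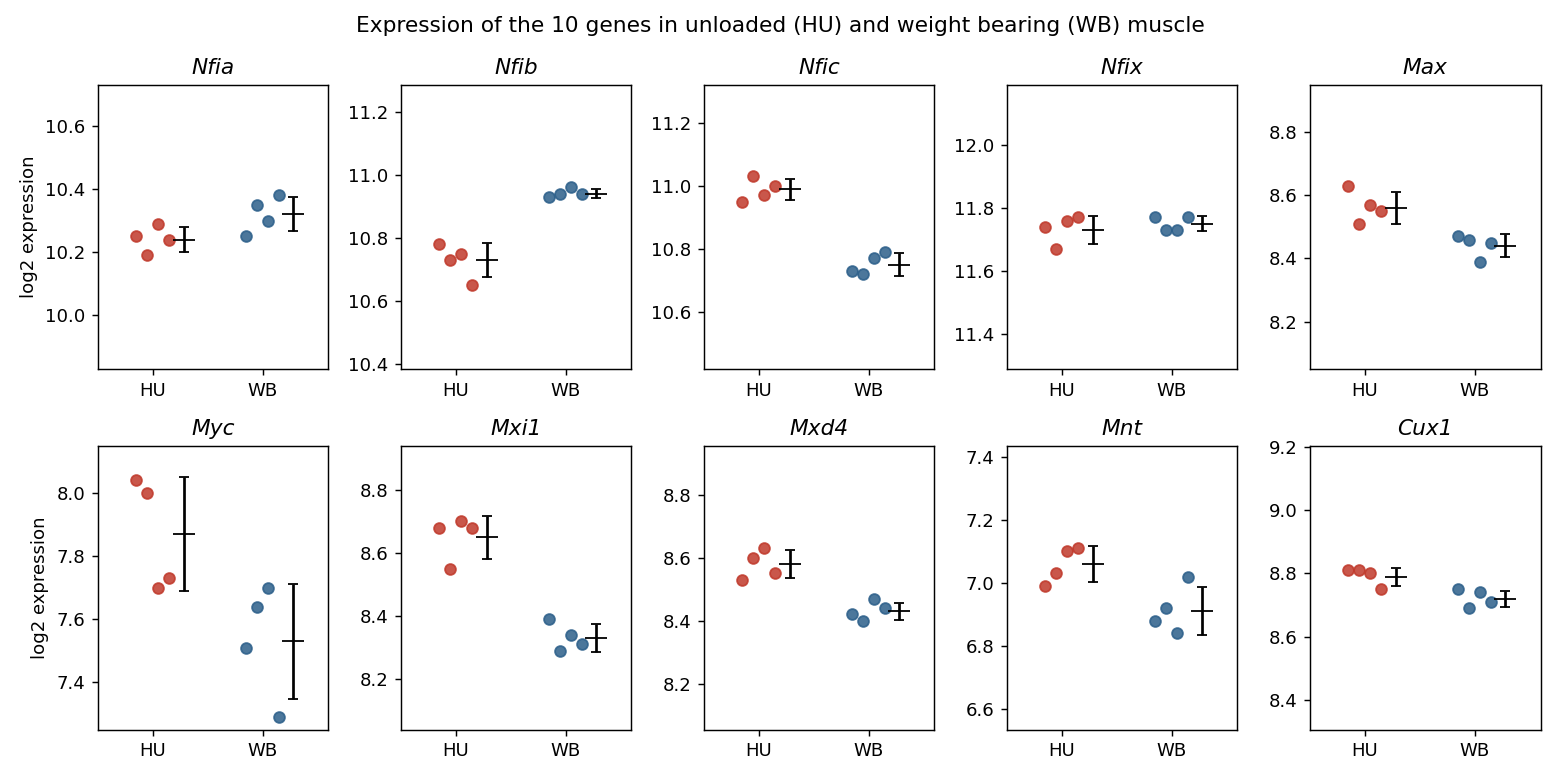
Log2 expression of the 10 genes on each array, unloaded (HU, red) left of weight bearing (WB, blue) in each panel, with the mean and SD of the 4 arrays in black and the same log2 span on every vertical axis. The groups stand clear of each other for Nfic, Mxi1 and Mxd4 (HU above WB) and for Nfib (HU below WB), while the Myc arrays spread most, from 7.70 to 8.04 in HU and from 7.29 to 7.70 in WB.

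The NFI family did not move as one. Nfic was higher and Nfib lower, while Nfia and Nfix did not pass the test. Nfic read 10.95, 11.03, 10.97 and 11.00 on the unloaded arrays and 10.73, 10.72, 10.77 and 10.79 on the weight bearing arrays. Every unloaded array was above every weight bearing array, and the gap between the groups (0.157) was wider than the spread inside either. The mean was 10.99 ± 0.0331 in HU and 10.75 ± 0.0366 in WB (SD, n = 4 each), a difference of 0.23 (SE 0.0445, 95% interval 0.13 to 0.33, limma adjusted p = 0.0046), which is 1.17-fold.

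Nfib went the other way. It read 10.78, 10.73, 10.75 and 10.65 on the unloaded arrays, against 10.93, 10.94, 10.96 and 10.94 on the weight bearing arrays. All 4 unloaded arrays were low, with replicate 4 the lowest, and the weight bearing arrays lay within 0.03 of each other. The mean was 10.73 ± 0.0525 in HU and 10.94 ± 0.0139 in WB (SD, n = 4 each), so Nfib was 1.16-fold lower in HU (log2 change -0.21, SE 0.0453, 95% interval -0.31 to -0.11, limma adjusted p = 0.00778). Nfic and Nfib kept their calls in all 15 alternative settings tried, with adjusted p between 4.7e-04 and 0.0178 for Nfic and between 0.00103 and 0.0313 for Nfib. Within an array, Nfic minus Nfib was 0.26 ± 0.0748 in HU (range 0.18 to 0.34) and -0.19 ± 0.0321 in WB (range -0.22 to -0.14). That pair was picked after the values were seen and the shift of 0.45 is given as a description, without a test. It says that these probe sets changed unequally, not which protein was the more abundant.

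Nfia read 10.25, 10.19, 10.29 and 10.24 in HU and 10.25, 10.35, 10.30 and 10.38 in WB. The groups overlapped, with weight bearing replicate 1 among the unloaded values, and the difference of -0.08 (95% interval -0.18 to 0.03) did not pass the test (limma adjusted p = 0.258). Nfix, the family member with the known role in fibre maturation, read 11.74, 11.67, 11.76 and 11.77 in HU and 11.77, 11.73, 11.73 and 11.77 in WB. Apart from the low unloaded replicate 2 the Nfix arrays could not be told apart by group, and the difference was -0.02 (95% interval -0.12 to 0.08, limma adjusted p = 0.794). A fall of up to 0.12 or a rise of up to 0.08 lies within that interval. Quantile normalization turned the sign of the Nfix difference (0.04).

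All 5 Max network genes had a higher mean in unloaded muscle, and 3 of them, Mxi1, Mxd4 and Myc, passed the test. This count depends on the setting: it was 5 after quantile normalization or without the dimmest 50% of probe sets, and 1 with array medians set equal or without unloaded replicate 2, weight bearing replicate 1 or weight bearing replicate 2. Mxi1, a repressor that competes with Myc for Max, gave the clearest change. It read 8.68, 8.55, 8.70 and 8.68 in HU and 8.39, 8.29, 8.34 and 8.31 in WB. Unloaded replicate 2 was the lowest of its group and still 0.16 above the highest weight bearing array. The mean was 8.65 ± 0.0687 in HU and 8.33 ± 0.0434 in WB (SD, n = 4 each), a difference of 0.32 (SE 0.0509, 95% interval 0.21 to 0.43, limma adjusted p = 0.00174) or 1.25-fold. Mxi1 stayed called in all 15 alternatives, with adjusted p between 4.4e-04 and 0.0143.

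Mxd4, another repressor of the Mxd group and one of the genes with an E-box in its promoter window, read 8.53, 8.60, 8.63 and 8.55 in HU and 8.42, 8.40, 8.47 and 8.44 in WB. The groups did not overlap, by a gap of 0.067. The mean was 8.58 ± 0.0431 in HU and 8.43 ± 0.0264 in WB (SD, n = 4 each), 1.11-fold higher (log2 change 0.15, SE 0.0447, 95% interval 0.05 to 0.25, limma adjusted p = 0.0385). This call held without unloaded replicate 1 (0.0381) and was lost on leaving out any other single array: adjusted p was 0.0879, 0.0973 and 0.0644 without unloaded replicates 2, 3 and 4, and 0.0855, 0.0907, 0.0503 and 0.0681 without weight bearing replicates 1, 2, 3 and 4. The difference itself lay between 0.13 and 0.16 in those fits.

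Myc had the largest change of the 10 and the widest spread. Its unloaded arrays read 8.04, 8.00, 7.70 and 7.73, and its weight bearing arrays 7.51, 7.64, 7.70 and 7.29. Unloaded replicates 1 and 2 were high, unloaded replicates 3 and 4 lay near the top of the weight bearing range, and the groups met at 7.70. The mean was 7.87 ± 0.18 in HU and 7.53 ± 0.182 in WB (SD, n = 4 each), a difference of 0.34 (SE 0.106, 95% interval 0.10 to 0.57, limma adjusted p = 0.0434) or 1.26-fold. The call was lost by the methods' t-test (0.135) and on leaving out unloaded replicate 1 (0.0959), unloaded replicate 2 (0.113) or weight bearing replicate 1 (0.0864), 2 (0.0533) or 4 (0.0922). The difference was then between 0.25 and 0.37.

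Max itself read 8.63, 8.51, 8.57 and 8.55 in HU and 8.47, 8.46, 8.39 and 8.45 in WB. The unloaded arrays were all above the weight bearing arrays, by as little as 0.033. The mean was 8.56 ± 0.0516 in HU and 8.44 ± 0.0367 in WB (SD, n = 4 each). The difference of 0.12 (SE 0.047, 95% interval 0.02 to 0.22, 1.09-fold) had an unadjusted p of 0.0278 and did not pass after adjustment (limma adjusted p = 0.0894). It did pass once the values were quantile normalized (0.0382) or the dimmest 50% of probe sets were left out (0.0424). Within an array, Mxi1 minus Max was 0.09 in HU (range 0.04 to 0.13) and -0.11 in WB (range -0.17 to -0.05), again a description of a pair picked after its values were seen. Another pair picked in that way, Mxi1 minus Mxd4, overlapped between the groups (-0.05 to 0.15 in HU and -0.13 to -0.03 in WB).

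Mnt, a repressor made in resting and growing cells alike, read 6.99, 7.03, 7.10 and 7.11 in HU and 6.88, 6.92, 6.84 and 7.02 in WB. Weight bearing replicate 4 overlapped the unloaded group. The difference of 0.15 (SE 0.0541, 95% interval 0.03 to 0.27, 1.11-fold) had an unadjusted p of 0.0215 and a limma adjusted p of 0.0749. Without weight bearing replicate 4 Mnt was called, at a difference of 0.18 (limma adjusted p = 0.0415), as it was once the values were quantile normalized (0.0393) or the dimmest 50% of probe sets were left out (0.0385).

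Cux1, the gene with the NF-kB match, read 8.81, 8.81, 8.80 and 8.75 in HU and 8.75, 8.69, 8.74 and 8.71 in WB. The groups stood apart by only 0.003. The difference of 0.07 (SE 0.0429, 95% interval -0.03 to 0.17, 1.05-fold) did not pass the test (limma adjusted p = 0.26), and Cux1 was called in 0 of the 15 alternatives, where adjusted p ran from 0.0676 to 0.42. Of 6 other factors with CUT domains, 0 were called in either direction by limma or by the methods' t-test, and 0 had an unadjusted limma p under 0.05. Onecut3 had the smallest p of them (mean 5.94 in HU and 5.79 in WB, limma adjusted p = 0.292).

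The other 8 genes of the Max and Mlx network show where the 5 described above stand. Of these 8, 1 was higher and 1 lower (12.5% each, near the 12.8% and 11% of all probe sets), and their median change was 0.04. Mxd1, the Mxd repressor known for its induction when cells leave the cycle, read 7.62, 7.60, 7.71 and 7.50 in HU and 7.40, 7.28, 7.13 and 7.48 in WB. The groups came within 0.015 of each other and did not overlap, with a difference of 0.28 (SE 0.0786, 95% interval 0.11 to 0.46, limma adjusted p = 0.0272) or 1.22-fold. The Mxd1 call was lost by the methods' t-test (0.106) and without unloaded replicate 1 (0.0512), 2 (0.058) or 3 (0.0737) or weight bearing replicate 2 (0.0642) or 3 (0.0554).

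Mlxipl, which encodes the glucose-responsive factor ChREBP and pairs with Mlx instead of Max, was lower. It read 9.38, 9.44, 9.47 and 9.59 in HU and 9.86, 9.91, 10.10 and 9.84 in WB. All unloaded arrays were below all weight bearing arrays, the difference was -0.46 (SE 0.0696, 95% interval -0.61 to -0.30, limma adjusted p = 0.00132, 1.37-fold lower), and no single array decided it (adjusted p between 0.00199 and 0.00566 with 1 array left out). Its partner Mlx differed by 0.11 (limma adjusted p = 0.22) and Mlxip, the related MondoA gene of muscle, by -0.10 (limma adjusted p = 0.329). Neither passed, nor did the Myc paralogs Mycn (-0.06) and Mycl (0.06), the S-phase repressor gene Mxd3 (0.02) and Mga (0.08), whose product is a further Max partner.

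**Figure D2:**
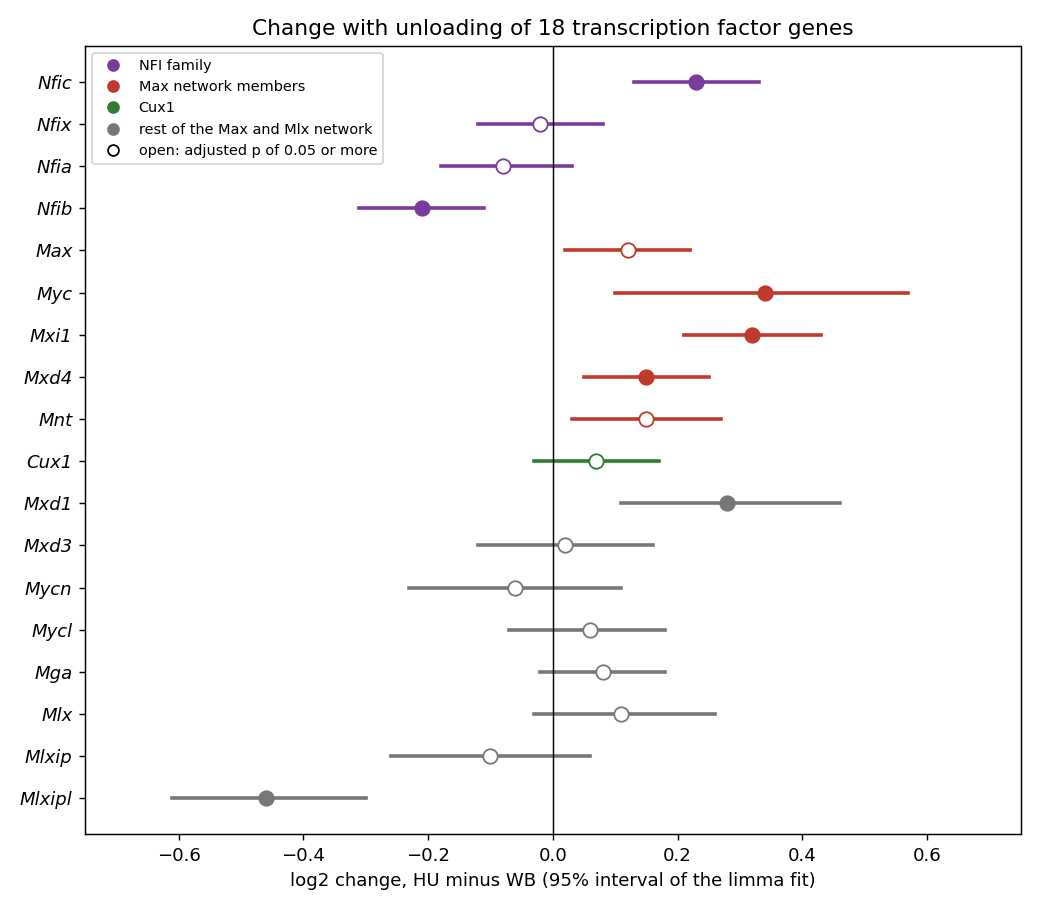
Log2 change (HU minus WB) with its 95% limma interval for the 10 genes and the 8 other genes of the Max and Mlx network; filled points passed an adjusted p of 0.05. Nfic (0.23) and Nfib (-0.21) lie on opposite sides of 0, all 5 Max network genes of the chosen set lie to the right, and Mlxipl (-0.46) lies farthest to the left.

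How far each of the 10 calls depended on the setting is shown by the adjusted p of every fit. Mxi1, Nfic and Nfib lay below 0.05 throughout. Mxd4, Myc, Mnt and Max lay on both sides of it, and Nfia, Cux1 and Nfix above it throughout.

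**Figure D3:**
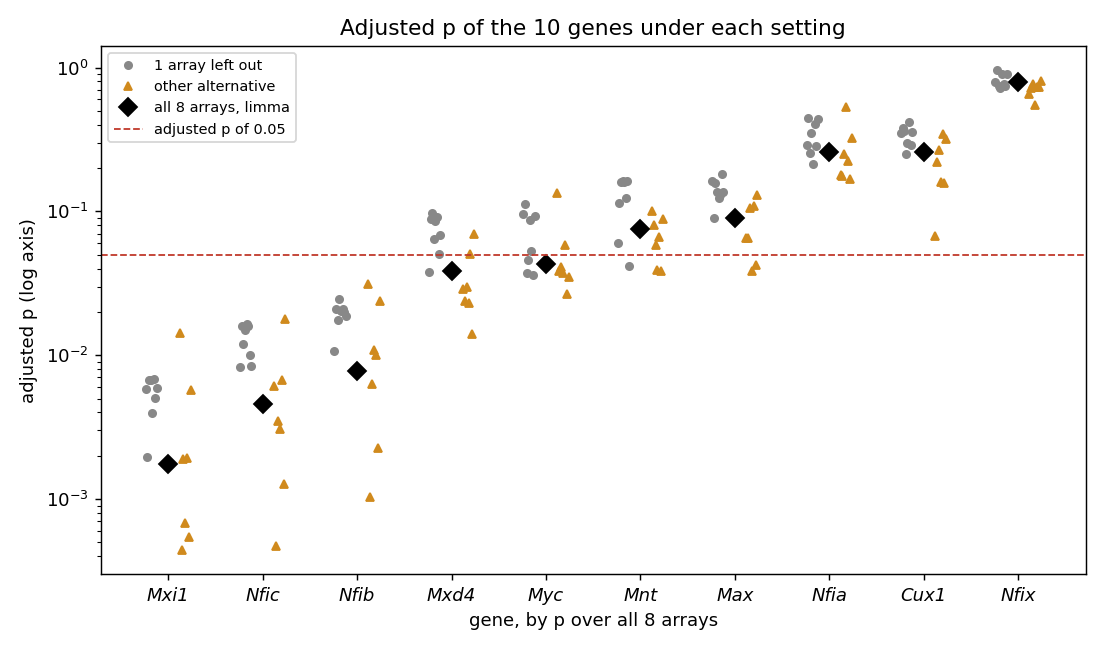
Adjusted p (log axis) of each of the 10 genes in the limma fit of all 8 arrays (black diamonds), with 1 array left out (grey points) and under the other alternatives (orange triangles), against the threshold of 0.05 (dashed). Mxi1, Nfic and Nfib stay under the line in every fit, with highest values of 0.0143, 0.0178 and 0.0313.

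The proteins that these factors work with and the genes they are known to act on were counted by list. Over all probe sets 12.8% were called higher and 11% lower, and no list was tested against these shares. In the Sin3 and histone deacetylase corepressor that Mxd, Mxi1 and Mnt proteins recruit, 3 of 17 measured genes were higher (17.6%) and 1 lower (5.88%). The median change was 0.01. Ing2, a subunit that reads histone methylation, was higher (7.26 in HU and 6.82 in WB, limma adjusted p = 0.00188). Sap130 (0.23) and Ing1 (0.23) were higher too. Sap30, a Sin3-associated protein, was lower (6.09 in HU and 6.73 in WB, limma adjusted p = 0.00223). By the methods' t-test only Ing2 (0.0436) was called in this list, since Sap30 (0.0669), Sap130 (0.0862) and Ing1 (0.119) were not. The Ing1 call was lost in 5 of the 8 fits that left out an array (adjusted p up to 0.0725) and the Sap130 call without weight bearing replicate 1 (0.0515).

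Among cofactors of Myc and proteins that control its turnover, 1 of 16 was higher (6.25%) and 3 were lower (18.8%), with a median change of 0. The shares over all probe sets were 12.8% and 11%. Aurka, Aurora kinase A, which stabilises Myc proteins, had a change of -0.40 (limma adjusted p = 4.0e-04), Usp28, a deubiquitinase of Myc, one of -0.33 (0.00781) and Bin1, a Myc-interacting protein that in muscle shapes the T-tubules, one of -0.30 (0.00299). Kat2a, an acetyltransferase recruited by Myc, was higher by 0.18 (0.0307), a call lost in 6 of the 8 fits that left out an array (adjusted p up to 0.0821). Neither Kat2a (0.0718) nor Usp28 (0.0739) was called by the methods' t-test.

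Classical Myc target genes serve ribosome production, metabolism and the cell cycle. Of 29 measured, 5 were higher (17.2%) and 6 lower (20.7%), against 12.8% and 11% of all probe sets, with a median change of -0.02. The largest change of the list was in Tfrc, the transferrin receptor, which was 3.98-fold lower (7.75 ± 0.161 in HU and 9.74 ± 0.215 in WB, SD, n = 4 each, limma adjusted p = 5.8e-06). Hspd1, a mitochondrial chaperonin, had a change of -0.62, and Ccnd2, cyclin D2, one of -0.50. Nme1, a nucleoside diphosphate kinase, had a change of -0.40. Among the genes that were higher, Polr1b, a subunit of RNA polymerase I, had a change of 0.25 (limma adjusted p = 0.00431) and Mybbp1a, a nucleolar protein, one of 0.22 (0.00835), and both kept their calls by the methods' t-test (0.0106 and 0.0136) and with any single array left out. Odc1, the first enzyme of polyamine synthesis, was higher too (8.08 in HU and 7.72 in WB, limma adjusted p = 0.0275), but its call was lost in 5 of the 8 fits that left out an array (adjusted p up to 0.0765). The list held 2 higher genes by the methods' t-test and without unloaded replicate 1 or 2 or weight bearing replicate 1 or 4, 3 without unloaded replicate 3 or weight bearing replicate 2, 4 without unloaded replicate 4 and 5 without weight bearing replicate 3.

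Of 15 other factors that bind E-box sites, 2 were higher and 2 lower, with a median of -0.02. Both shares lay near those over all probe sets, 12.8% higher and 11% lower. Srebf1, a regulator of lipid synthesis, was 1.46-fold higher (limma adjusted p = 0.0031) and Tfeb, a regulator of lysosome genes, 1.15-fold higher (0.0227), while Hes1, a Notch target, was 1.45-fold lower (7.6e-04) and Srebf2, a regulator of cholesterol synthesis, 1.19-fold lower (0.0307). Without single arrays the Tfeb call was lost in 4 of 8 fits (up to 0.0631) and the Srebf2 call in 6 (up to 0.0837), and neither was called by the methods' t-test (0.0513 and 0.0977). Of 10 targets of the Mondo and ChREBP factors, Arrdc4 was higher (0.52, limma adjusted p = 0.00157) and Klf10 lower (-0.53, 0.00569), and 8 were not called. This list, like the next, had 10% higher and 10% lower, near the shares over all probe sets. The methods' t-test did not call Klf10 (0.0605). Of 10 fibre maturation genes linked to Nfix, Prkcq, a protein kinase C of muscle, was higher (0.47, limma adjusted p = 1.4e-04). The embryonic myosin gene Myh3 was lower (-0.24, 0.0414), a call lost in 5 of the 8 fits that left out an array (up to 0.108) and by the methods' t-test (0.112). Its level was low, at 5.02 in HU and 5.26 in WB, below the lowest array median of 6.279.

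**Figure D4:**
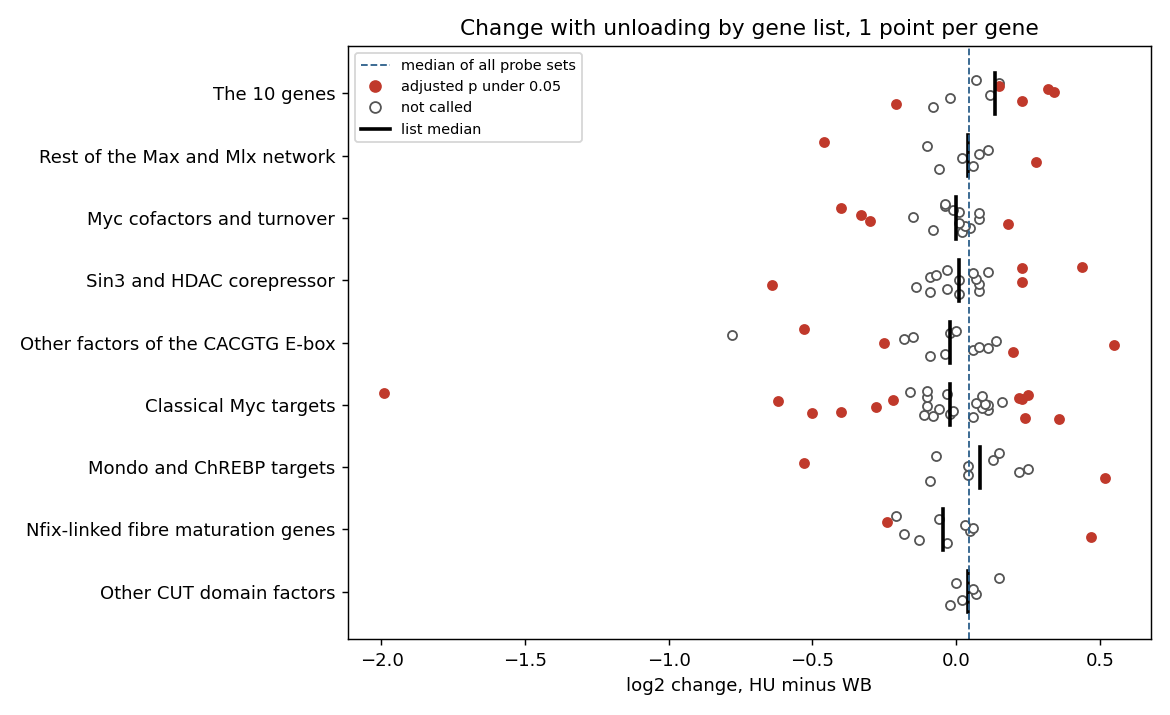
Log2 change (HU minus WB) of each measured gene in the 10 genes and 8 related lists, with list medians as black bars and the median of all probe sets (0.045) as a dashed line; red points passed an adjusted p of 0.05. The median of the 10 genes (0.13) lies right of the dashed line, the Myc targets have a median of -0.02, and Tfrc (-1.99) is the point farthest left.

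Muscle RNA holds RNA of several cell types. On such arrays fewer cells of a type and less RNA of the marker genes in each cell cannot be told apart. Over all probe sets 12.8% were called higher and 11% lower. Fibroblast markers were lower in 5 of 8 cases, with summed levels on the linear scale of 7760 to 7880 in HU and 10400 to 11700 in WB, and 6 of 8 macrophage markers were lower (1640 to 2090 in HU and 2200 to 2640 in WB). The sums of 8 muscle fibre markers, of which 3 were lower, ran from 49900 to 51100 in HU and from 54500 to 56900 in WB, and those of 8 endothelial markers, of which 2 were lower, from 3810 to 3930 in HU and from 3970 to 4480 in WB. Satellite cell markers gave 1070 to 1150 in HU and 947 to 1090 in WB and were mixed in direction. Cdh15 (0.68, limma adjusted p = 2.6e-05) and Myf5 (0.19, 0.0452) were higher, the Myf5 call being lost in 7 of the 8 fits that left out an array (up to 0.115), while Chodl (-0.23, 0.051) and Calcr (-0.22, 0.0503) just missed the threshold and were called lower with array medians set equal (0.0427 and 0.0411). Myf5 (5.75 in HU and 5.57 in WB) and Calcr (5.39 in HU and 5.61 in WB) read below every array median. Pericyte and smooth muscle markers gave 10200 to 10500 in HU and 9620 to 10200 in WB, with 1 of 8 higher and 1 lower. The higher gene was Des, which muscle fibres also express, and without it the sums were 4690 to 5110 in HU and 4860 to 5530 in WB. The method of summarising these arrays lists no marker at 0. Such sums weigh bright genes most and do not show that every marker fell. Among fibre markers Myh2 changed by -0.79, but Ckm (-0.03), Ttn (-0.03) and Myh1 (0.01) were not called. Among fibroblast markers Col1a1 changed by -2.48, but Dcn (-0.02) was not called. Nor were Pecam1 (0.08) and Cldn5 (0.19) among endothelial markers and Cd68 (-0.04) among macrophage markers. The changes of the 10 genes, in both directions, stood beside lower sums of fibroblast, macrophage, muscle fibre and endothelial markers without overlap between the groups. Satellite cell sums overlapped. The part of these cells in the changes was not tested.

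The named genes whose values followed those of a chosen gene most closely over the 8 arrays were sought among 18784 genes. The measure was the mean absolute difference after each gene was centred on its own mean. Among so many genes and so few arrays close matches can arise by chance. No closeness was tested, and the names are given as a description. Nearest to Nfic were Usb1 (0.0118), Des, the muscle intermediate filament desmin (0.0137), and Phb2, prohibitin 2 (0.0173). Nearest to Max were Ufsp2 (0.0131), Dnajc25 (0.0139) and Uimc1 (0.0196). Nearest to Cux1 were Olfr1368 (0.0137), Emc7 (0.0146) and Tex261 (0.0159). Neither these genes nor those nearest to Max were called (limma adjusted p between 0.11 and 0.473). For Myc, whose arrays spread most, the nearest genes were farther off: Tmem38b (0.0674), Gm9457 (0.0693) and Kir3dl2 (0.0715).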

How the data were processed

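The 8 samples were 4 unloaded and 4 weight bearing muscles, each labelled as a separate biological replicate with a minimal RIN of 8.0. The authors ran RMA (robust multi-array analysis) on the arrays together, grouping probes by a custom definition, and the deposited values are log2 expression, 1 per probe set. RMA equalises the arrays at the level of single probes and then summarises these, so the summarised values can still differ in distribution, and small differences are relative to each array as a whole. The versions of RMA and of the probe grouping were not given in the sources used here. Array medians lay between 6.279 and 6.332, all 8 columns were used and 0 were unused, and 0 pairs of arrays were identical. With 4 arrays in each group, their number limits the precision.

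The deposited values were used without further scaling or filter. Of 21212 probe sets, 18786 had 1 gene symbol in the platform's annotation, 6 had several and 2420 had none. HU and WB were compared two-sided by lmFit and eBayes of limma 3.58.1 (R 4.3.3). The p-values were adjusted by Benjamini-Hochberg over all probe sets, and a gene was called at an adjusted p under 0.05. The scripts were tested on simulated data. Fold changes were computed by raising 2 to the log2 difference. Summed marker levels add the values after they were turned back to the linear scale. Python 3.11.15, pandas 2.3.3, numpy 2.4.6 and scipy 1.17.1 were used for counts and promoter windows.

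The text names the 10 genes, the other measured genes of the network, up to 4 called genes of largest change per related list (or that of smallest p where none passed) and, for Nfic, Max, Cux1 and the gene with the largest change, the 3 genes of nearest pattern. Odc1, Polr1b and Mybbp1a among the Myc targets, and Chodl and Calcr among the satellite cell markers, fall outside this rule and were chosen after their values were seen. The same holds for the fibre, fibroblast, endothelial and macrophage markers that are named as not called. The genes and lists were chosen with earlier results of these data known. Alternatives were the methods' t-test (unequal variances), an intensity trend with robust variance, array weights, quantile normalization, equal array medians, leaving out the dimmest 50% of probe sets, a block of replicate numbers, the omission of each array in turn and, for counts, an adjusted p under 0.01.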

Additional observations from a re-analysis of the deposited data

Results flagged for a closer look

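Among the 36 groups of 4 arrays made by the 10 genes and the 8 other genes of the network, 2 held an array far from the others by Dixon's criterion, which chance alone gives in about 5% of groups. Mxd3 in unloaded replicate 3 read 6.03, against 5.81 to 5.83 in the other unloaded arrays (gap over range 0.902). Mlxip in unloaded replicate 4 read 9.96, against 9.88 to 9.89 in the other unloaded arrays (0.88). Both genes were not called in the comparison of HU with WB.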

How the results depend on the processing

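The changes of Nfib, Nfic and Mxi1 kept direction and call in all 15 alternatives, and Nfia and Cux1 kept direction and were called in none of them. The number of genes called higher was 4, fell to 2 (Nfic and Mxi1) with array medians set equal and at an adjusted p under 0.01, and lay between 2 and 3 with 1 array left out. The number called lower was 1 throughout. Myc was no longer called by the methods' t-test (0.34, adjusted p = 0.135) or with array medians set equal (0.33, 0.0582), and its change lay between 0.25 and 0.39 with 1 array left out. Mxd4 was no longer called with array medians set equal (0.14, 0.0503) or with the replicate block (0.15, 0.0693), and lay between 0.13 and 0.16 with 1 array left out. Max (0.14 after quantile normalization, 0.12 without the dimmest 50% of probe sets) and Mnt (0.17 and 0.15) were called in those 2 settings only among the 7 that kept all arrays, and Mnt lay between 0.12 and 0.18 with 1 array left out. The change of Nfix was 0.04 after quantile normalization and between -0.03 and 0.0039 with 1 array left out. The filter tested fewer probe sets. For the other shifts the cause was not tested.

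Same-numbered arrays of the groups deviated together only weakly (r = 0.0242, 0.0366, 0.12 and 0.0954 for numbers 1 to 4). For each unloaded array the highest r with a differently numbered weight bearing array was 0.102, 0.0356, -0.00694 and 0.0282. The same number gave the higher r for numbers 2, 3 and 4 but not for 1. These values do not settle whether the numbers mark pairs, and the numbers are used here as names. With the replicate block 3 of the 10 genes were higher and 1 lower, and over all probe sets 2455 were higher and 2213 lower, against 2715 and 2324 without it. Of the other genes named, the block ended the calls of Mxd1 (0.0605), Kat2a (0.0515), Ing1 (0.0531), Myh3 (0.0522) and Myf5 (0.0907). By the methods' t-test 1393 were higher and 1374 lower, and Max (0.0654) and Cux1 (0.0676) were in neither count. The study drew both from genes it called increased by its own t-test with q-values. The t-test here used unequal variances and Benjamini-Hochberg adjustment, and it called fewer genes higher than the study reported as increased. A call lost by it is therefore not a failure of the study's own test. Why the calls differ was not tested. With 1 array left out the higher count ran from 1802 (without unloaded replicate 3) to 2852. Averaging several probe sets gave no other value, since each of the 10 genes has 1. With 4 arrays per group, changes as small as that of Cux1 were not resolved.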
